A study of Danio rerio with 14 samples.

Results

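Zebrafish embryos whose parents had received gamma radiation at 53 mGy/h were compared directly with embryos whose parents had received 8.7 mGy/h. Both groups were F1 offspring of AB wild type adults exposed during gametogenesis and bred 1 month later, a brood that the labels call 0 yr. Each group had 3 libraries, 6 of the 14 in the series, and no control library entered the difference. Each library was made from 100 whole embryos at 5.5 h after fertilization, by poly(A) selection and without strand information, so overlapping antisense genes cannot be separated. The control values quoted beside the results come from 2 libraries of embryos from unexposed parents of the same brood, a further sample having been lost. The members were the 13197 genes listed in both tables of that brood, out of 13780 listed in either, each described by its log2 level at 53 mGy/h minus that at 8.7 mGy/h.

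Levels are in RPM, reads per megaread of library, as the authors gave them, with 1 pooled value per group and gene. The tables hold no value per library, so the spread between libraries is unknown, and no difference between the dose rates could be tested. A gene is therefore called higher or lower by size, at 2-fold or more with at least 1 RPM in the higher group. RPM is not scaled to gene length, so levels are compared between groups and not between genes. Depth recovered from the values, as the smallest geometric mean over libraries that they allow, was 27.3 M reads (megareads) per library at 53 mGy/h and 25.7 M at 8.7 mGy/h. Counting error alone then gives a log2 difference a standard error of 0.229 at 1 RPM, 0.072 at 10 RPM and 0.023 at 100 RPM. The labels name no clutch, parent pair or collection day for a library, so these and the exact age of the embryos cannot be told apart from the dose rate.

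At this age the zebrafish embryo enters gastrulation. It begins life on RNA and protein stored in the egg. Its own genome is then switched on by maternal transcription factors of the Pou5, Nanog and SoxB1 families, while stored transcripts are cleared. The newly made transcripts include the Nodal, BMP, FGF and Wnt signals that lay out the body axes, and the genes of the first separate tissues. These tissues are the mesendoderm, the neural ectoderm, the enveloping layer, which is the outer epithelium, and the yolk syncytial layer, which feeds on the yolk.

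Genes in both directions lay 2-fold or more apart between the dose rates. Of 13055 genes past the filter, 1937 (14.8%) were at least 2-fold higher at 53 than at 8.7 mGy/h and 1632 (12.5%) at least 2-fold lower, 3569 (27.3%) in all. At 4-fold or more the counts were 237 higher and 881 lower, and at 8-fold or more 2 higher and 257 lower. No gene was 16-fold higher, and 58 were at least 16-fold lower. The choice of genes favours the lower side in these counts. The join left out 517 genes listed only in the 53 mGy/h table and 66 only in the 8.7 mGy/h table, and 848 genes past the filter were under 1 RPM at 53 mGy/h against 148 at 8.7 mGy/h. With at least 1 RPM in both groups, 1860 genes were higher and 887 lower, 230 and 378 at 4-fold and 2 and 61 at 8-fold. No gene left out by the join exceeded 6.03 RPM. Among the 7781 joined genes of at least 10 RPM in the higher group, 1308 were higher and 548 lower, 193 and 288 at 4-fold and 2 and 67 at 8-fold. A lower gene under 1 RPM at 53 mGy/h passed the filter only through its 8.7 mGy/h level, so the counts and medians of the lists are descriptions. Each list count below is to be read beside the shares of all genes, 14.8% higher and 12.5% lower. The median log2 difference over all genes past the filter was 0.16, and each list median below is to be read beside that value. When differences were taken relative to it, 1482 genes were higher and 1803 lower.

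The lower genes took more of the reads at 8.7 mGy/h than the higher genes. Their levels summed to 53283 RPM at 8.7 mGy/h and to 16027 RPM at 53 mGy/h, with 51046 RPM in the control. The higher genes summed to 23135 RPM at 8.7 mGy/h and to 63592 RPM at 53 mGy/h, with 23959 RPM in the control. On both sides the 8.7 mGy/h sum lay near the control sum. Both sets were picked for a difference between 8.7 and 53 mGy/h, which leaves out genes that moved alike at both dose rates. That nearness is therefore partly built in. In the authors' deposited tables, 5686 of the 13055 genes (43.6%) had a false discovery rate (FDR) under 0.05 for 53 mGy/h against the control and 37 (0.283%) for 8.7 mGy/h against the same control. In the authors' deposited tables, 1740 of the higher genes and 1555 of the lower ones were called at 53 mGy/h against the control, and 4 and 5 of them at 8.7 mGy/h. That FDR does not compare the dose rates with each other. The same 53 mGy/h libraries enter it and the difference, so the overlap is partly built in and is not separate support.

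**Figure D1:**
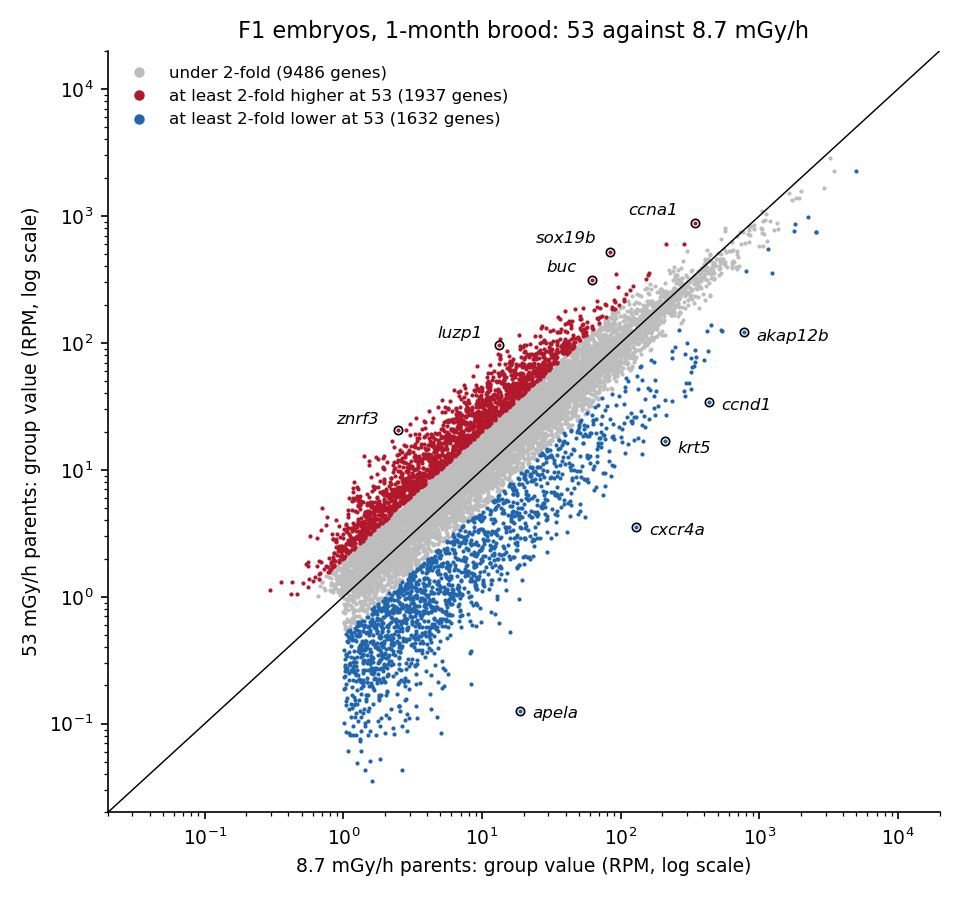
Each point is a gene past the filter, with its group value at 8.7 mGy/h on the horizontal axis and at 53 mGy/h on the vertical axis, both in RPM on log scales; the line marks equal levels and circles mark labelled genes. The plot holds 1937 higher and 1632 lower genes, with apela at 18.8 and 0.125 RPM farthest from the line. The straight left edge of the lower genes is the 1 RPM filter, and 517 genes listed only in the 53 mGy/h table are not drawn, so the reach of the sides is not to be compared at low levels.

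The widest gap was that of apela, which encodes the peptide hormone Toddler, a ligand of the apelin receptors that guides mesendodermal cells. This gene lies on chromosome 1, from 18975010 to 18980963 in the build GRCz10. It stood at 20.3 RPM in the control, 18.8 RPM at 8.7 mGy/h and 0.125 RPM at 53 mGy/h, the last equal to 3.42 reads per library. Its log2 difference was -7.23, with a counting interval (95%) of -8.33 to -6.38. It was near the limit of detection at 53 mGy/h alone of these 3 groups. Among genes with a symbol and at least 10 RPM in the higher group, the chemokine receptor gene cxcr4a, on chromosome 6, followed. It stood at 117 RPM in the control, 130 RPM at 8.7 mGy/h and 3.54 RPM at 53 mGy/h, a log2 difference of -5.20.

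Among the 15 lowest genes with a symbol and at least 10 RPM in the higher group were the keratin genes cyt1l, cyt1, krt5 and krt92 and evpla, a gene of the envoplakin family that builds the cornified envelope. The keratin gene krt5 stood at 208 RPM at 8.7 mGy/h and 17.0 RPM at 53 mGy/h, with 168 RPM in the control. The envoplakin gene evpla stood at 19.4 and 1.36 RPM. In the control and at 8.7 and 53 mGy/h, cyt1l stood at 6.75, 12.4 and 0.725 RPM and cyt1 at 7.41, 12.9 and 1.01 RPM. The authors' FDR for 53 mGy/h against the control was 0.00943 for cyt1l, 0.00589 for cyt1, 0.00448 for krt5 and 0.000376 for krt92. It was 0.021 for styk1 and 0.00766 for mtp, and at most 1.54e-16 for the others of the 15, such as 6.57e-28 for evpla. The other lowest genes were styk1, a receptor kinase-like gene (13.3 and 0.617 RPM), kcnk1a, a potassium channel gene (12.8 and 0.965 RPM), drl, a zinc finger gene of the early blood and heart field (14.96 and 1.14 RPM), foxd5, mtp, ca9, a carbonic anhydrase gene (23.4 and 2.11 RPM), znf185 (31.5 and 2.88 RPM) and ccnd1. The G1 cyclin gene ccnd1, with the highest RPM of the 15, stood at 439 RPM in the control, 432 RPM at 8.7 mGy/h and 34.3 RPM at 53 mGy/h.

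At the same minimum level, the largest difference toward higher levels was that of MARCHF2, which encodes a membrane-bound ubiquitin ligase, at 1.42 RPM and 12.9 RPM (log2 difference 3.19). The file gives that name as a date, and its symbol was taken from the gene identifier. The next was znrf3, which encodes a ubiquitin ligase that removes Wnt receptors from the cell surface, at 2.49 and 20.7 RPM (3.05). It lies on chromosome 5 from 15492390 to 15627690. Other members of this group were the zinc finger genes hivep3b (3.31 and 25.7 RPM), zbtb1 (2.85 and 20.7 RPM) and zbtb21 (2.32 and 15.2 RPM), rapgef1a, an exchange factor for the GTPase Rap1 (2.23 and 17.0 RPM), and the kinesin gene kif19 (1.54 and 11.7 RPM). The interferon pathway factor gene stat1a stood at 1.78 and 12.2 RPM, and bicc1a, which encodes an RNA-binding protein, at 5.16 and 35.7 RPM. The remainder of the 15 were fam222a, POLR2M, lrrcc1, gatsl3, luzp1 and sh2d5. Of these, the leucine zipper gene luzp1 had the highest RPM, 13.4 and 96.7.

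In the largest differences toward higher levels, the 8.7 mGy/h value could also lie above the control value. The gene luzp1 stood at 8.90 RPM in the control, 13.4 RPM at 8.7 mGy/h and 96.7 RPM at 53 mGy/h, sh2d5 at 5.56, 9.27 and 65.8 RPM, and hivep3b at 1.71, 3.31 and 25.7 RPM. In each the step from 8.7 to 53 mGy/h was far longer than that from the control to 8.7 mGy/h. These genes were picked for a large step from 8.7 to 53 mGy/h, so that order is partly built in. POLR2M was in another order, with 2.65, 1.52 and 10.9 RPM. Over the 237 genes at least 4-fold higher, the median level was 4.06 RPM in the control, 5.07 RPM at 8.7 mGy/h and 24.3 RPM at 53 mGy/h. Over the 1700 genes 2- to 4-fold higher it was 6.96, 6.79 and 17.6 RPM, and over the 881 genes at least 4-fold lower it was 4.85, 5.02 and 0.750 RPM. Whether the steps from the control to 8.7 mGy/h exceed the spread between libraries was not tested.

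Among genes with a symbol (rather than a clone-type name) and at least 200 RPM in the higher group, the 8 with the largest differences toward lower levels were ccnd1, krt5, the otolith matrix gene stm (292 and 38.5 RPM), blf, a zinc finger gene (321 and 43.6 RPM), id1, a BMP target (233 and 34.6 RPM), zic2b (313 and 48.6 RPM), asb11 (297 and 47.9 RPM) and akap12b, which encodes a kinase-anchoring scaffold (769 and 121 RPM). On the higher side, the SoxB1 gene sox19b, which the mother supplies and which helps to open the genome, stood at 70.1 RPM in the control, 84.3 RPM at 8.7 mGy/h and 522 RPM at 53 mGy/h. The gene buc, whose product assembles germ plasm in the egg, stood at 44.3, 62.1 and 314 RPM, and lsm14b, which encodes a protein of stored messenger RNA particles, at 75.4, 92.7 and 347 RPM. The early cyclin genes ccnb2 (212 and 601 RPM) and ccna1 (342 and 873 RPM), the polarity gene llgl1 (67.5 and 212 RPM), wdr20a (77.1 and 204 RPM) and the spindle pole gene wdr62 (90.3 and 211 RPM) completed this side.

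At the 2-fold limit itself, cdkn1bb (26.1 and 52.2 RPM) was just counted as higher and scamp2l (33.4 and 66.8 RPM) just not. On the other side stk3 (49.6 and 24.9 RPM) was just not counted as lower. At such levels the counting interval of a gene spans the limit.

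In the Nodal pathway, which induces mesendoderm, 5 of 15 genes were higher and 5 lower, with a median log2 difference of 0.23. The lower members were all ligand, antagonist or coreceptor genes. The ligand genes ndr1 and ndr2 stood at 8.45 and 3.13 RPM and at 9.93 and 1.95 RPM, the antagonist genes lft1 and lft2 at 8.76 and 1.78 RPM and at 11.8 and 1.34 RPM, and the coreceptor gene tdgf1 at 164 and 42.7 RPM. Of 5 effector genes 4 were higher. The effector Smad genes smad2 (64.4 and 182 RPM), smad3a (1.53 and 4.75 RPM) and smad3b (1.48 and 4.64 RPM), the T-box gene eomesa (36.6 and 155 RPM) and the receptor gene acvr2aa (9.44 and 42.1 RPM) were the 5 higher members. The Nodal-related ligand gene gdf3, which the mother supplies and which was chosen after its values were seen, stood at 196 and 256 RPM.

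Nodal targets and other mesendoderm factors were lower. Of 14 mesoderm and endoderm factors 11 were lower and 0 higher, with a median log2 difference of -1.96. The largest were those of osr1 (10.2 and 1.31 RPM), the endodermal GATA factor genes gata6 (67.3 and 11.5 RPM) and gata5 (26.6 and 5.17 RPM), and foxd3 (24.9 and 4.64 RPM). Of the 8 genes listed as mesendoderm markers 7 were lower, and all 7 are members of that same list of factors. They include the brachyury gene ta (59.8 and 12.8 RPM) and the organizer gene gsc (18.1 and 4.99 RPM).

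The guidance genes of mesendoderm held members at both extremes. Of 9 genes 6 were lower and 2 higher, with a median log2 difference of -2.29. Ligand and receptor copies parted. The chemokine gene cxcl12a stood at 9.02 RPM at 8.7 mGy/h and 1.23 RPM at 53 mGy/h, and its copy cxcl12b at 2.07 and 11.6 RPM. The apelin receptor gene aplnra stood at 48.1 and 9.82 RPM, and aplnrb, the higher marker among the 8 above, at 39.6 and 177 RPM. Both copies of the chemokine receptor were lower, cxcr4b with 56.6 and 8.25 RPM.

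In the BMP pathway, which sets ventral fates, 22 of 37 genes were lower and 1 higher, with a median log2 difference of -2.21. Ligands, antagonists and targets were lower in most cases, with 4 of 4 ligand genes, 5 of 8 genes of antagonists and their proteases and 12 of 17 targets past 2-fold. The ligand gene bmp7a stood at 57.3 and 8.54 RPM, and the dorsal antagonist gene chd, chordin, at 87.2 and 18.1 RPM, both chosen after their values were seen. By contrast 1 of 8 receptor and Smad genes was lower, and that role had a median of 0.03. The 4 largest differences were those of szl (5.08 and 0.084 RPM), a secreted inhibitor of chordin cleavage, the homeobox gene eve1 (4.72 and 0.112 RPM), tfap2c (19.7 and 2.06 RPM) and the ventral repressor gene vox (144 and 16.8 RPM). At 53 mGy/h szl was at 2.29 reads per library. The higher member was the ectodermal forkhead gene foxi1, at 10.7 and 27.3 RPM.

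Ligand and target genes of the FGF and Wnt pathways were mostly lower too. Of 22 FGF genes 13 were lower and 1 higher (median -1.81), including 5 of 7 ligand and receptor genes. The ligand gene fgf4 stood at 2.08 and 0.295 RPM and fgf8a at 15.9 and 2.91 RPM, and the feedback inhibitor genes spred2a at 8.94 and 1.26 RPM and spry4 at 2.46 and 0.447 RPM. The ETS factor gene etv5a, an FGF target, was the higher member at 46.6 and 184 RPM. Of 33 canonical Wnt genes 13 were lower and 1 higher (median -0.44). The lower ones were 6 of 9 ligand and receptor genes and 6 of 7 antagonist and target genes, such as the target genes sp5l (3.33 and 0.139 RPM) and sp5a (5.80 and 0.647 RPM). Of 17 transducer genes 1 was lower, tcf7l2 (1.03 and 0.237 RPM), and 1 higher, lef1 (17.2 and 57.8 RPM), both of which encode DNA-binding partners of beta-catenin.

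In planar polarity and noncanonical Wnt signalling, which shape convergent extension, 3 of 18 genes were lower and 1 higher (median 0.41). The ligand gene wnt11 stood at 70.5 and 17.7 RPM, prickle1b at 42.8 and 10.5 RPM, the cadherin gene celsr1a at 2.71 and 1.13 RPM and prickle2a at 3.80 and 18.05 RPM. Of 19 Notch pathway genes 7 were lower and 1 higher (median -0.66). They included the ligand gene dld (1.81 and 0.152 RPM) and the transcription factor genes her8a (13.3 and 2.17 RPM) and hes6 (17.0 and 2.92 RPM), against hey2 (1.24 and 6.02 RPM). The authors did not call celsr1a (FDR 0.0657) or hes6 (FDR 0.0689) at 53 mGy/h against the control. In the retinoic acid list 5 of 6 genes of synthesis, binding and breakdown were lower, such as the binding protein gene crabp2b (25.1 and 2.90 RPM) and the retinol dehydrogenase gene rdh10b (55.0 and 19.0 RPM). None of the 5 receptor and target genes of that list passed 2-fold.

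**Figure D2:**
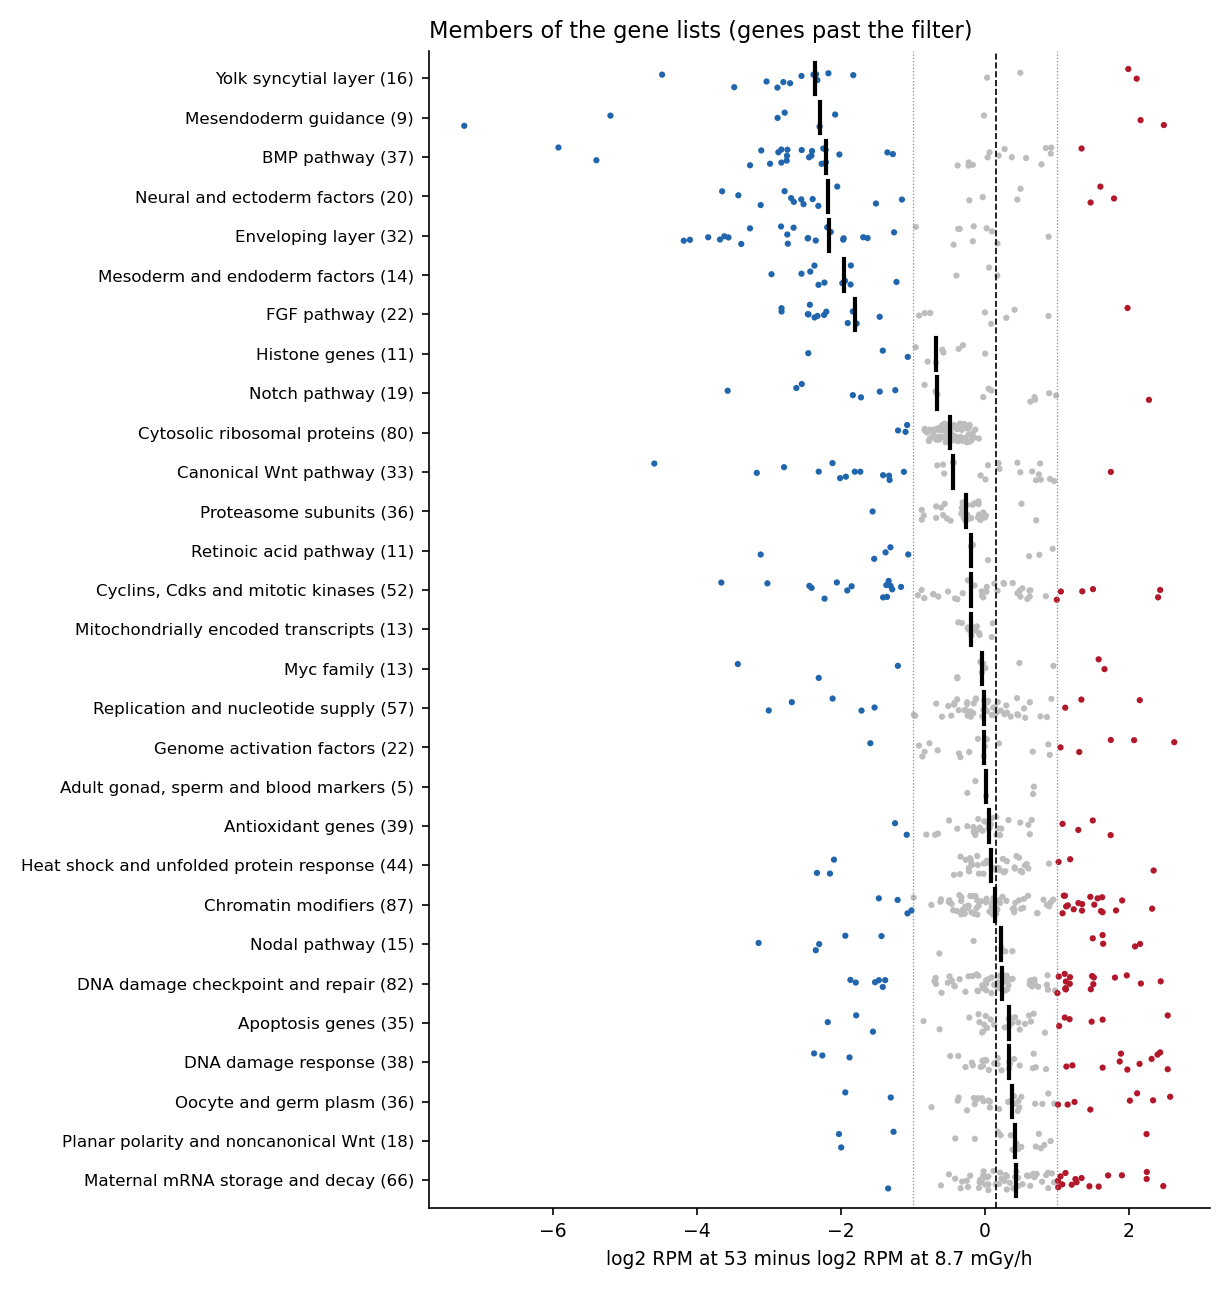
Each point is a member of a gene list, placed by its log2 RPM at 53 minus that at 8.7 mGy/h, in red where at least 2-fold higher and in blue where at least 2-fold lower; numbers in brackets are genes past the filter, black bars are list medians, the dashed line is the median of all genes (0.16) and dotted lines mark 2-fold. The medians run from -2.36 in the yolk syncytial layer to 0.43 in maternal mRNA storage and decay, and among the signalling lists from -2.21 in the BMP pathway to 0.23 in the Nodal pathway and 0.41 in planar polarity and noncanonical Wnt signalling.

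Genes of the early tissues were mostly lower at 53 mGy/h. Of 20 neural and ectoderm factors 13 were lower and 3 higher (median -2.18). The neural genes foxd5 (40.8 and 3.26 RPM) and sox3 (143 and 13.4 RPM) were among the largest, and crabp2b also belonged to this list. The higher members were otx1b, sox8b (1.75 and 6.08 RPM) and sox9b (10.1 and 28.0 RPM). The 4 neural markers found in the join, which overlap with these factors, summed to 683 RPM at 8.7 mGy/h and 97.0 RPM at 53 mGy/h. The planned markers sox2 and otx2 were not found there.

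In the enveloping layer list, 22 of 32 genes were lower and 0 higher, with a median log2 difference of -2.16. The largest were those of the keratin genes krt17 (2.51 and 0.139 RPM), cyt1l and cyt1 and of evpla. In that list 4 genes had a log2 difference above 0. All 13 listed markers of this layer were lower, and they summed to 1525 RPM in the control, 1630 RPM at 8.7 mGy/h and 350 RPM at 53 mGy/h. These markers overlap with the list and were chosen with earlier results known, so they are not separate support. Keratin and junction genes were lower in 17 of 22 cases and regulators in 5 of 10. The yolk syncytial layer list had 12 of 16 genes lower and 2 higher (median -2.36). The lipoprotein assembly gene mtp stood at 49.6 and 4.45 RPM, the sulfate transporter gene slc26a1 at 13.7 and 1.68 RPM and the apolipoprotein gene apoc2 at 1.92 and 0.262 RPM. The authors did not call apoc2 at 53 mGy/h against the control (FDR 0.0562). Among the higher members was creb3l3l (4.13 and 17.8 RPM). The 6 listed markers of the yolk syncytial layer, which overlap with its list, were all lower. Their sums were 463, 528 and 108 RPM in the control and at 8.7 and 53 mGy/h. In whole embryos, fewer cells of a type and less RNA per cell cannot be told apart.

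None of the 5 listed germ cell markers passed 2-fold. They summed to 195 RPM in the control, 181 RPM at 8.7 mGy/h and 250 RPM at 53 mGy/h. In the wider list of oocyte and germ plasm genes 8 of 36 were higher and 2 lower (median 0.38). Relative to the all-gene median, 6 were higher and 2 lower. Beside buc, the Tudor domain genes tdrd6 (13.4 and 79.7 RPM) and tdrd1 (19.0 and 77.0 RPM) were higher, as was si:ch73-119o17.1 (13.4 and 58.3 RPM), whose current symbol is buc2l. The lower members were tdgf1 and org (48.8 and 19.7 RPM), the oogenesis-related gene. Of adult gonad, sperm and blood markers 5 genes were listed and 0 passed 2-fold. The steroidogenic gene cyp17a1 had the highest RPM among them, at 39.1 and 62.3 RPM.

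Genes that handle stored maternal RNA had more higher than lower members. Of 66 genes of mRNA storage and decay 16 (24.2%, beside 14.8% of all genes) were higher and 1 lower, and the median log2 difference was 0.43. Relative to the all-gene median, 11 of 66 were higher and 1 lower, beside 1482 and 1803 of all 13055 genes. The deadenylase gene cnot7 stood at 2.57 and 14.3 RPM, the polyadenylation factor gene cpeb1b at 18.7 and 88.8 RPM, the Argonaute gene ago1 at 9.22 and 43.8 RPM and lsm14b at 92.7 and 347 RPM. The lower member was zfp36l1b, which encodes an AU-rich element binding protein (2.51 and 0.993 RPM). No test of the difference from other genes was possible.

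Among factors of genome activation the counts were small. Of 11 activator genes 1 was higher, sox19b, and 0 were lower, while 4 of 11 bromodomain and acetylation genes were higher and 1 lower. The acetyltransferase genes crebbpa (20.5 and 86.1 RPM) and ep300a (24.5 and 60.8 RPM) and the bromodomain gene brd2b (13.0 and 43.6 RPM) were higher, and brd2a (302 and 101 RPM) was lower. Of the other activators, chosen after their values were seen, pou5f3 stood at 1055 and 579 RPM and nanog at 1108 and 1037 RPM.

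Some of the genes above are pairs of copies with opposite differences, and such pairs were counted over the whole table. Zebrafish keep many duplicated genes whose names differ in a final a or b, although the ending alone does not show that a pair arose by duplication. Of 1015 pairs with both genes past the filter, 24 had 1 gene at least 2-fold higher and the other at least 2-fold lower, 46 had both higher and 24 both lower. Opposite pairs were thus 2.36% of all pairs. The product of the all-gene shares (14.8% higher, 12.5% lower) would give 37.7 such pairs. Those shares include 358 genes of a chromosome 4 region described below, of which 304 were lower and 19 carry a symbol. Without these 358 genes the shares were 15.2% higher and 10.5% lower. Pairs were formed by gene name, so the all-gene product is no fair measure for them, and nothing is concluded from it. In 338 pairs 1 gene passed and in 583 neither did. In the SoxB1 pair the zygotic and maternal copies went separate ways. The zygotic copy sox19a stood at 180 RPM in the control, 186 RPM at 8.7 mGy/h and 31.8 RPM at 53 mGy/h, and the maternal copy sox19b at 70.1, 84.3 and 522 RPM. The head patterning genes otx1a and otx1b stood at 6.75 and 1.63 RPM and at 25.1 and 76.3 RPM. The kinesin genes kif20ba and kif20bb stood at 34.6 and 103 RPM and at 21.5 and 5.81 RPM. The clock repressor genes cry1a and cry1b stood at 2.18 and 0.975 RPM and at 11.04 and 49.7 RPM, and the channel-like genes ano5a and ano5b at 1.11 and 0.084 RPM and at 6.88 and 28.2 RPM. These last pairs were chosen after their values were seen. In each of them the 8.7 mGy/h levels lay nearer to the control levels than to the 53 mGy/h levels. The pairs were picked for differences between 8.7 and 53 mGy/h, so this is partly built in. How the authors' counting treated reads that match both copies is not given in the sources used here.

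**Figure D3:**
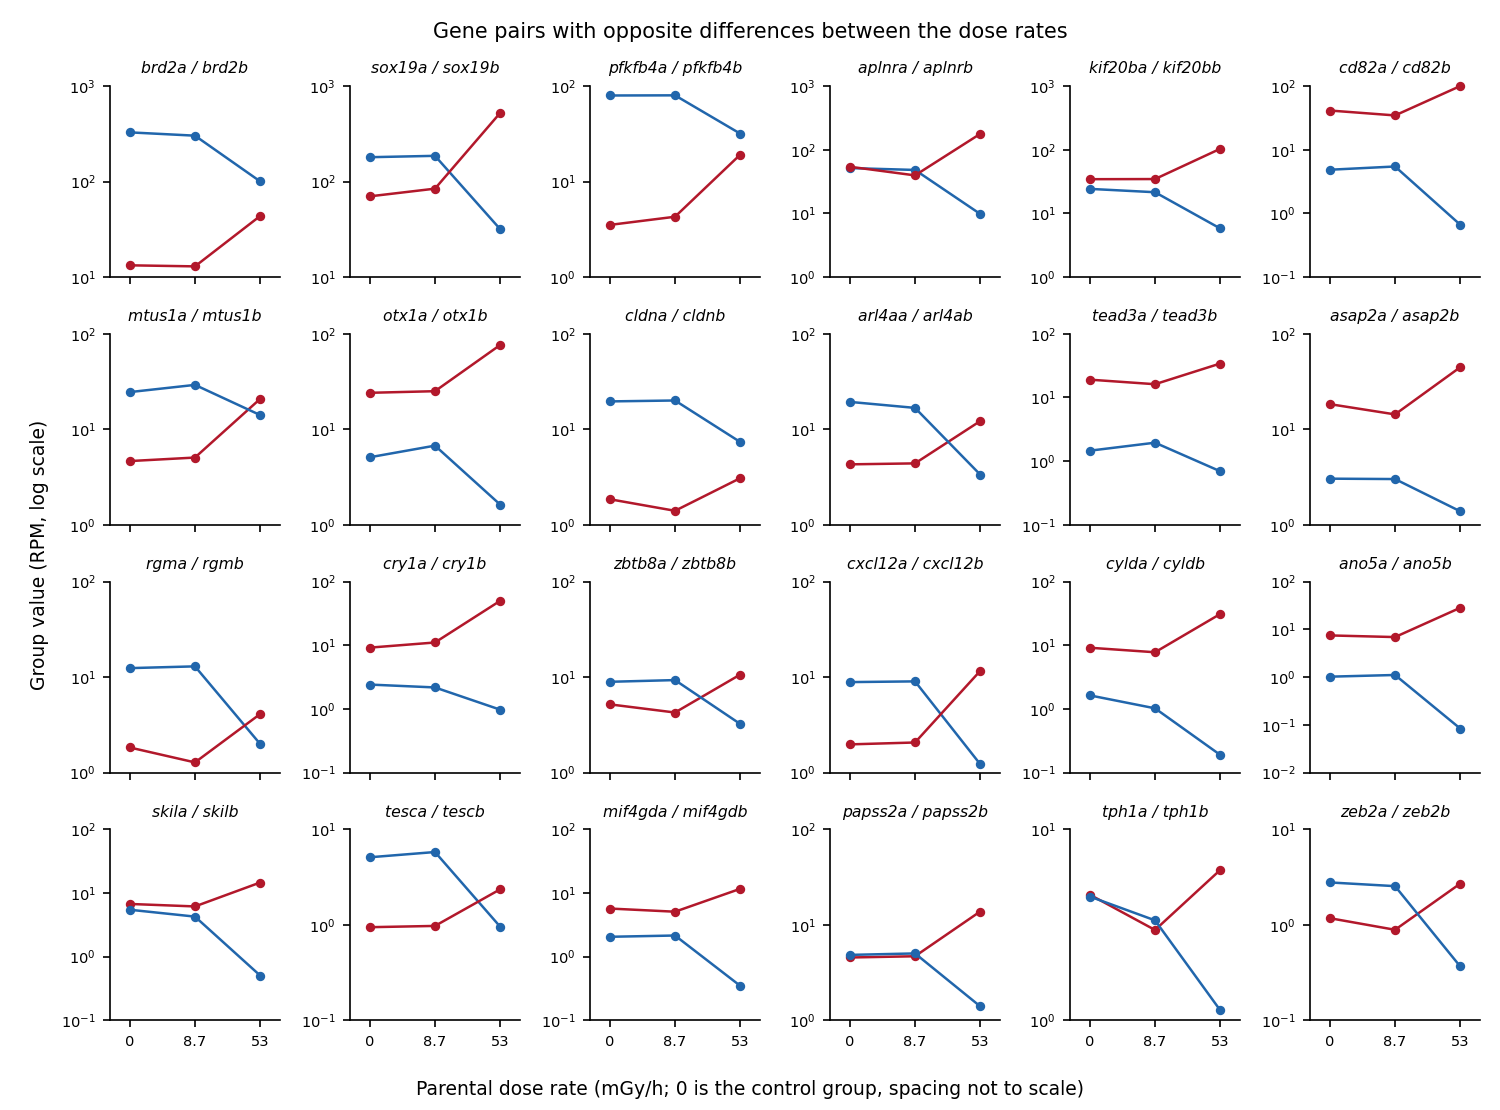
Each panel is a pair of genes whose names differ in a final a or b, with group values in RPM on a log axis for the control (0), 8.7 and 53 mGy/h; red is the copy at least 2-fold higher at 53 than at 8.7 mGy/h and blue the copy at least 2-fold lower. From 8.7 to 53 mGy/h, sox19a goes from 186 to 31.8 RPM and sox19b from 84.3 to 522 RPM.

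Cell cycle genes lay on both sides. Of 52 cyclins, kinases, inhibitors and checkpoint genes 15 were lower and 6 higher (median -0.19). The G1 cyclin genes ccnd1 and ccne2 (77.0 and 9.51 RPM), ccnb3 (34.6 and 6.39 RPM) and the spindle checkpoint gene bub3 (33.5 and 6.33 RPM) were lowest. The inhibitor gene cdkn1a (3.53 and 19.1 RPM), the pocket protein gene rbl2 (1.94 and 10.3 RPM), ccnb2 and ccna1 were highest. In the Myc family the transcription factor genes mycn (50.7 and 4.71 RPM) and mych (346 and 70.0 RPM) and the antagonist gene mxd4 (1.99 and 0.861 RPM) were lower, and myclb (17.8 and 56.4 RPM) and mxi1 (28.0 and 83.8 RPM) higher, among 13 genes (median -0.04).

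In the replication list most genes were within 2-fold, with 5 of 57 lower and 3 higher (median -0.01). The helicase genes mcm6 (86.7 and 10.9 RPM) and mcm3 (143 and 22.4 RPM) were lower, while the related genes mcm6l (132 and 119 RPM) and mcm3l (48.1 and 74.2 RPM) were not past 2-fold. Also lower were the kinase subunit gene dbf4 (16.8 and 3.88 RPM) and the topoisomerase gene top2b (6.13 and 1.87 RPM). The clamp loader gene rfc1 (13.0 and 57.7 RPM), the thymidylate synthase gene tyms (24.3 and 61.6 RPM) and orc3 (18.4 and 39.8 RPM) were the higher ones.

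The DNA damage response includes the cell cycle arrest and cell death that follow damage to DNA. The list under this name holds regulators and targets, and checkpoint and repair genes form a separate list. Of 38 genes in this list 11 (28.9%, beside 14.8% of all genes) were higher and 3 lower, with a median log2 difference of 0.34. The cell death gene bbc3 (2.72 and 15.8 RPM), cdkn1a, the target gene phlda3 (5.71 and 30.1 RPM) and mdm4 (15.7 and 78.1 RPM) were highest. The ubiquitin ligase gene mdm2 stood at 48.5 RPM in the control, 54.0 RPM at 8.7 mGy/h and 118 RPM at 53 mGy/h. The lower members were gadd45ba (26.5 and 5.14 RPM), perp (34.9 and 7.32 RPM), an epithelial junction gene, and gadd45bb (78.7 and 21.4 RPM).

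Checkpoint and repair genes had 17 of 82 higher (20.7%, beside 14.8% of all genes) and 6 lower (median 0.24). With differences taken relative to the median of all genes, 10 of 82 were higher and 6 lower. Of all 13055 genes 1482 were then higher and 1803 lower, so the higher share of the list was near that of all genes. The kinase genes atm (2.84 and 15.4 RPM) and atr (6.92 and 31.1 RPM), the Fanconi gene fanci (21.0 and 82.4 RPM) and rad54b (9.94 and 34.8 RPM), a gene of homologous recombination, were highest. The excision repair genes ercc1 (3.39 and 0.981 RPM) and ercc6 (7.55 and 2.63 RPM) and the glycosylase gene tdg.1 (9.38 and 3.38 RPM) were among the lowest. Among 35 apoptosis genes 6 (17.1%) were higher and 3 lower (median 0.34), a higher share near that of all genes. Relative to the all-gene median, 4 were higher and 4 lower. The initiator caspase gene casp8 (11.1 and 34.6 RPM) and cflara (3.20 and 7.23 RPM) were higher beside bbc3, and diabloa (3.80 and 0.839 RPM), bida (2.20 and 0.637 RPM) and birc2 (4.78 and 1.63 RPM) were lower. Of 39 antioxidant genes 4 (10.3%) were higher and 2 lower (median 0.06). On the higher side were bach1a (2.86 and 9.60 RPM), oxr1b (4.12 and 11.7 RPM), sod1 (20.8 and 51.2 RPM) and txnrd1 (62.2 and 132 RPM). On the lower side were gstal (2.63 and 1.11 RPM) and txn2 (8.97 and 4.23 RPM).

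Chromatin genes had 18 of 87 higher (20.7%, beside 14.8% of all genes) and 4 lower (median 0.14, the side of 0 depending on the centring). Relative to the all-gene median, 13 of 87 were higher and 5 lower, beside 1482 and 1803 of all 13055 genes. The histone demethylase gene kdm4ab (27.0 and 135 RPM), the histone methyltransferase gene kmt2a (27.0 and 101 RPM) and the remodeller gene ino80 (8.65 and 26.9 RPM) were among the highest. Beside tdg.1, kdm6a (28.9 and 12.5 RPM), smarcb1a (25.03 and 11.9 RPM) and kmt2e (29.6 and 14.6 RPM) were lower. Of 11 histone genes 3 were lower and 0 higher (median -0.68), namely the linker gene h1f0 (1.91 and 0.349 RPM), h2afx (24.9 and 9.34 RPM) and h3f3a (1148 and 547 RPM).

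Of 44 heat shock and unfolded protein genes 3 were higher and 3 lower (median 0.08). The stress factor genes atf4a (68.7 and 15.5 RPM) and atf4b (33.2 and 6.61 RPM) and the small heat shock gene hspb1 (534 and 125 RPM) were lower, and dnajb1a (3.52 and 17.9 RPM), pdia4 (20.3 and 46.1 RPM) and dnaja3a (20.3 and 41.4 RPM) higher.

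Housekeeping lists showed small differences, mostly below 0. All 80 cytosolic ribosomal protein genes past the filter had a log2 difference below 0, with a median of -0.49. Of the 80, 3 passed 2-fold, among them rplp1 (51.1 and 23.8 RPM) and rplp2 (12.3 and 5.83 RPM). Their levels summed to 7631 RPM in the control, 8146 RPM at 8.7 mGy/h and 6002 RPM at 53 mGy/h. Proteasome genes had 1 of 36 lower, psmb6 (14.1 and 4.78 RPM), and a median of -0.26. None of 13 mitochondrially encoded transcripts passed 2-fold, the median was -0.19, and the 2 of highest RPM were mt-co1 (3256 and 2858 RPM) and mt-co3 (1090.3 and 931 RPM). Of the later-stage tissue markers 1 gene was listed, under 1 RPM.

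Differences were unevenly spread over the genome. On chromosome 4, 368 of 701 genes (52.5%) were lower at 53 mGy/h, against 6.22 to 17.0% on the other 24 chromosomes. Among genes that start past 30 Mb on chromosome 4, a limit chosen after the values were seen, 304 of 358 (84.9%) were lower and 3 higher, with a median log2 difference of -2.42. Between 30 and 65 Mb, a stretch also chosen after the values were seen, all 259 genes past the filter were lower. Their log2 differences ran from -1.02 to -5.49. The genes from 65 Mb to the end were 45 of 99 lower, with a median of -0.52. From 65 to 70 Mb 28 of 31 were still lower (median -2.33). From 70 to 75 Mb 14 of 47 were lower, and from 75 to 80 Mb 3 of 21, so 65 Mb is not an edge. From 25 to 30 Mb 29 of 55 genes were lower, with a median of -1.20, so the limit at 30 Mb is not a sharp edge. Up to 25 Mb 35 of 288 were lower, with a median of 0.07. The levels of the 358 genes summed to 2516 RPM in the control, 2494 RPM at 8.7 mGy/h and 1079 RPM at 53 mGy/h. Their median was 3.41 RPM at 8.7 mGy/h and 0.708 RPM at 53 mGy/h. Genes under 1 RPM at 53 mGy/h passed the filter only through their 8.7 mGy/h level, and the join left out 517 genes listed only in the 53 mGy/h table. The counts of this region are therefore descriptions, partly set by that choice of genes. In this region 19 of the 358 genes carry a symbol, and this arm is known for repeated gene families, so reads may be split between similar copies. Without these 358 genes, 1328 of 12697 genes (10.5%) were lower and 1934 (15.2%) higher.

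**Figure D4:**
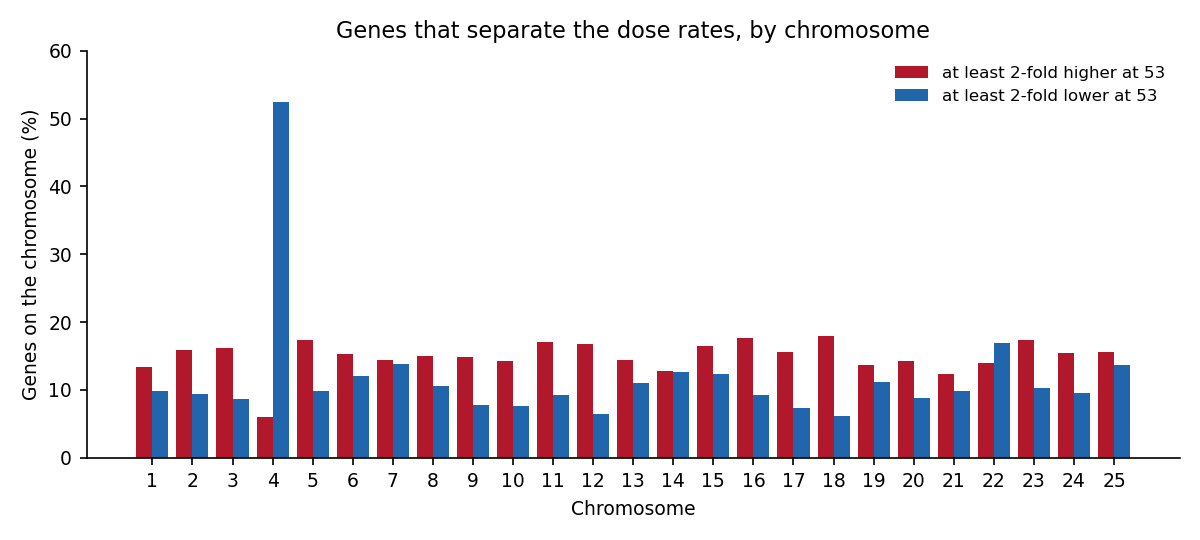
Bars give, for each chromosome, the percentage of its genes past the filter that were at least 2-fold higher (red) or lower (blue) at 53 than at 8.7 mGy/h. Chromosome 4 stands out with 52.5% lower and 5.99% higher, while the other 24 chromosomes have 6.22 to 17.0% lower and 12.4 to 17.9% higher.

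Lower genes were also short and higher genes long. The median distance from a gene's start to its end, introns included, was 9505 bp among lower genes, 17797 bp among genes within 2-fold and 26088 bp among higher genes. Without the chromosome 4 genes past 30 Mb the lower median was 9291 bp. Across 5 equal classes of gene span, the share of lower genes went from 23.5% in the shortest class to 7.35% in the longest, and the share of higher genes from 8.23% to 22.4%. The shares also differed by level. Among genes of 3 to 10 RPM at 8.7 mGy/h 19.9% were higher and 14.8% lower, and among the 212 genes of at least 300 RPM 0.47% were higher and 12.7% lower. Because the level at 8.7 mGy/h enters the difference, part of this trend is built in.

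A last question was how genes that the authors called at 8.7 mGy/h behaved at 53 mGy/h. Both comparisons use the same control libraries, so their differences from it share its error, and only the levels are set side by side. The authors' deposited table has 39 genes with an FDR under 0.05 for 8.7 mGy/h against the control, and 37 of them were in the join and past the filter, 19 above the control and 18 below. Of the 37 genes, 28 (75.7%) were less than 2-fold apart between the dose rates and 18 (48.6%) less than 1.5-fold apart. Over all genes past the filter these shares were 72.7% and 55.0%, so the counts show nothing particular to the 37 genes. For the aldehyde dehydrogenase gene aldh3a1 the levels were 8.01 RPM in the control, 16.6 RPM at 8.7 mGy/h and 17.6 RPM at 53 mGy/h. The ribonucleotide reductase gene rrm2 on chromosome 20 stood at 103, 33.4 and 48.8 RPM. In both genes the exposed groups lay on the same side of the control, against which both had been called. The dose rates were 1.06-fold apart in aldh3a1, with a counting interval of the log2 difference from -0.029 to 0.190. In rrm2 on chromosome 20 they were 1.46-fold apart, with an interval of 0.474 to 0.618. A second gene with the symbol rrm2, on chromosome 19, stood at 318, 389 and 399 RPM.

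The remaining 9 genes were at least 2-fold apart, 4 higher and 5 lower at 53 mGy/h. The fibronectin gene fn1a, on chromosome 9 from 15391097 to 15453436, stood at 28.0 RPM in the control, 14.3 RPM at 8.7 mGy/h and 57.0 RPM at 53 mGy/h. The authors' deposited tables give it an FDR of 0.0018 at 8.7 mGy/h and 0.000867 at 53 mGy/h. The adenylate cyclase gene adcy8 stood at 11.8, 6.31 and 19.7 RPM, and cyp2x6, a cytochrome P450 gene, at 2.32, 5.02 and 0.633 RPM. In these genes the dose rates lay on opposite sides of the control. The same held for si:ch211-173p18.3 (236, 155 and 272 RPM), which was within 2-fold between the dose rates, and by a small margin for nxph1. However, the authors called neither at 53 mGy/h against the control (FDR 0.712 and 0.687). They did call adcy8 (FDR 0.0316) and cyp2x6 (FDR 0.00152) there, as well as fn1a. The zinc finger gene maza stood at 12.2, 19.7 and 46.3 RPM, highest at the higher dose rate. The gene si:ch211-195b13.9 stood at 17.6, 8.77 and 2.14 RPM, lowest at the higher dose rate. The genes kctd1 (4.65, 1.57 and 3.48 RPM), gbp2 (0.927, 3.32 and 1.27 RPM) and nxph1 (4.37, 9.46 and 4.29 RPM) stood nearer to the control at 53 than at 8.7 mGy/h. The same was true of ODF3L2 (1 of 2), at 6.11, 20.7 and 9.74 RPM. So did the Polycomb partner gene jarid2b (41.6, 18.7 and 33.9 RPM), rbm45 (14.9, 7.70 and 14.0 RPM) and gfra4a (2.34, 5.01 and 2.76 RPM), which were within 2-fold between the dose rates. Because all these genes were picked for a difference from the control at 8.7 mGy/h, a level nearer to it at 53 mGy/h is partly built in.

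**Figure D5:**
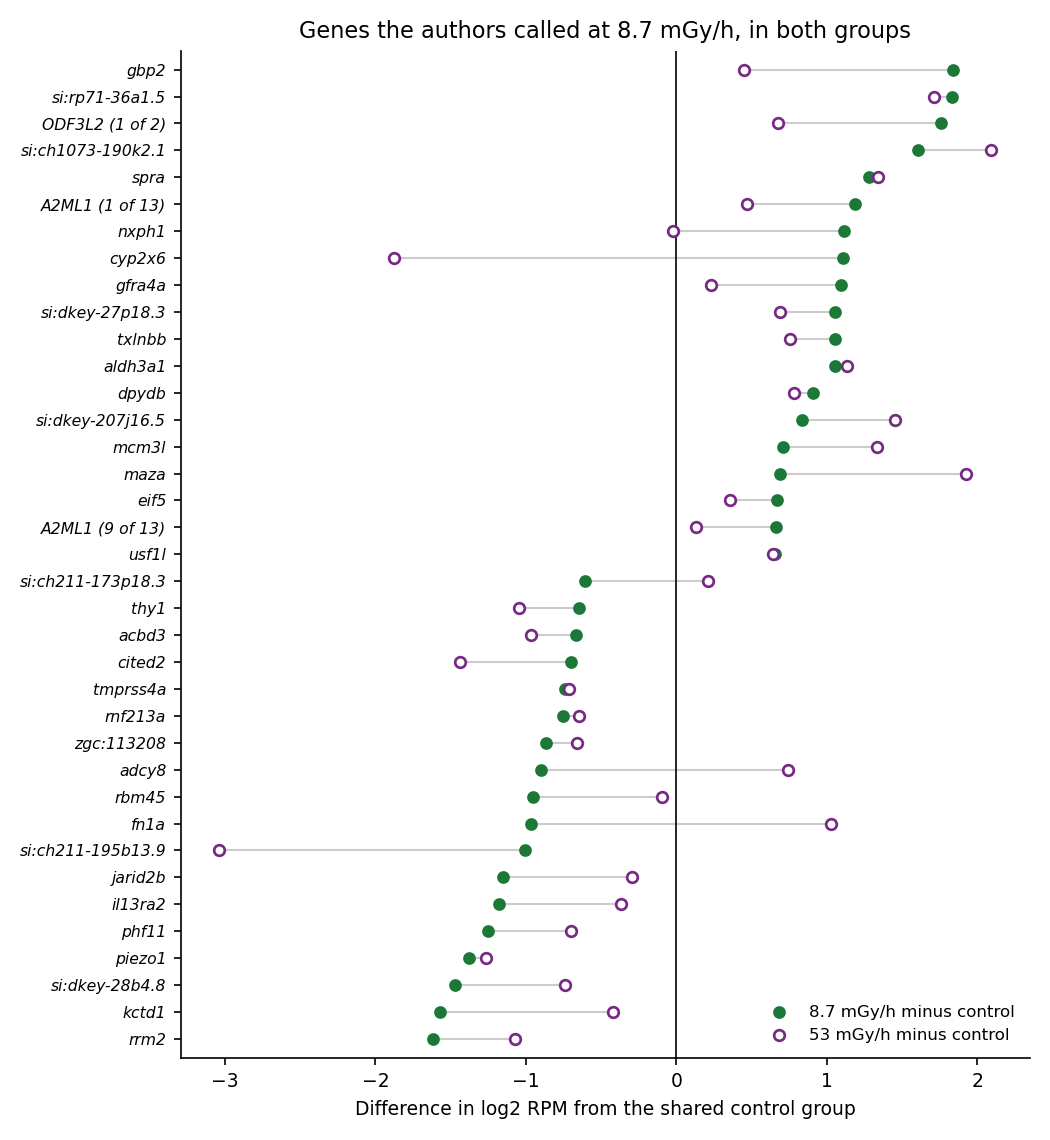
For each of the 37 genes that the authors called at 8.7 mGy/h, the filled point is its log2 RPM at 8.7 mGy/h and the open point its log2 RPM at 53 mGy/h, each minus that of the shared control group. In 28 genes the points lie less than 1 log2 unit apart, as in aldh3a1. In cyp2x6, adcy8, fn1a, si:ch211-173p18.3 and nxph1 they lie on opposite sides of 0, in nxph1 by a small margin (-0.024 at 53 mGy/h). Of these genes, si:ch211-173p18.3 and nxph1 were not called by the authors at 53 mGy/h against the control.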

How the data were processed

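RNA was sequenced from whole F1 embryos, and the build was GRCz10, per the submitters' processing notes, which also list STAR 2.5.2b, DESeq2, FastQC 0.11.5 and Trim Galore 0.4.2 but not what each was used for. Per the file headers, the authors deposited for every gene a group level in RPM (reads per megaread of library) and its log2 RPM. The authors' deposited fold, a signed score, was not used here, and their FDR is an adjusted p-value from a test that the tables do not name. The tables of 13714 and 13263 genes were joined on gene identifier (13197 genes), and 142 genes under 1 RPM in both groups were left out. The control values of both tables were identical.

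From the deposited log2 RPM the difference, 53 minus 8.7 mGy/h, was taken per gene with Python 3.11.15, numpy 2.4.6 and pandas 2.3.3, and figures were drawn with matplotlib 3.10.9. Each pooled value is a mean over libraries of log2 RPM, so the number of reads was recovered from products of whole reads. With 3 libraries per exposed group, 100% of the 150 lowest values from 0.4 RPM came out whole (tolerance 0.04), against 18.7 and 20.7% with a wrong number of libraries. Intervals (95%) cover counting error only, and nothing says that the libraries came from separate parents. No count model could be used, since no library has its own values. The depth recovery and the 2-fold rule were tested on simulated data.

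The genes named, among those with a symbol rather than a clone or numbered name, were the 15 with the largest difference each way at 10 RPM or more in the higher group, the 8 largest each way at 200 RPM or more, the 4 largest each way past 2-fold in each of 30 lists, up to 10 genes called at 8.7 mGy/h, those at the 2-fold limit and 6 further genes (cdkn1a, mdm2, rrm2, jarid2b, fn1a and aldh3a1). A few of the genes this rule picks are not reported here. Members of the marker lists, and copies needed to tell paralogues apart, were also named. Members, lists and limits were chosen with earlier results of these data known. The lists and marker sets held more names than were found, and counts cover only the genes found. For 32 names of mesoderm and endoderm factors, 14 genes were past the filter. For 33 retinoic acid names there were 11, and for 30 names of adult markers 5. Older names were matched to current symbols for 12538 of the genes, and 11 names turned into dates were replaced by their identifier's symbol.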

Additional observations from a re-analysis of the deposited data

How the results depend on the processing

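No paired analysis was possible because the tables hold 1 pooled value per group, and for the same reason no replicate could be left out in turn. The counts of 1937 higher and 1632 lower genes became 3652 and 2225 at 1.5-fold and 237 and 881 at 4-fold. The lower count was 887 with at least 1 RPM in both groups and 548 with at least 10 RPM in the higher group, where the higher counts were 1860 and 1308. With no filter, log2(RPM + 1), either centring, the RPM column, genes in all 3 tables, or without chromosome 4 past 30 Mb (chosen after seeing the data), the higher counts lay between 1482 and 1943 and the lower between 1186 and 1803. Of the 3569 genes past 2-fold, 3295 had an FDR under 0.05 against the control at 53 mGy/h in the authors' deposited table and 3076 an FDR under 0.01. This overlap is partly built in, because the same 53 mGy/h libraries enter both. Of 29 list medians 18 were below 0, and 17 to 22 under the alternatives.

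List medians near 0 took the other sign under some settings. Centred on all genes, and then on genes of at least 10 RPM in both groups, they were -0.097 and -0.081 for antioxidant genes, -0.073 and -0.056 for heat shock genes, and -0.14 and -0.12 for adult markers. Chromatin modifiers were at -0.012 with the first centring, and canonical Wnt genes at 0.010 with at least 10 RPM. Under the centrings aldh3a1 was at -0.076 and -0.059 and rrm2 on chromosome 19 at -0.12 and -0.11. No other of the 195 named genes changed sign. Most had been picked for a difference of at least 2-fold, which centring by so small a median cannot reverse. Taking log2(RPM + 1) cannot change a sign either, so this result was largely fixed in advance. The cause of the shift was not tested. At 1 RPM counting error limits a fold, and spread between libraries, which is unknown, limits every statement.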

Other observations

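Gene groups outside the lists were also compared, grouped by the letters that open their symbols. Of 74 such groups with at least 15 genes, 5 are given here, picked after their values were seen, so they carry no test. Of 33 vps genes, most of which act in vesicle and endosome traffic, 13 were at least 2-fold higher at 53 than at 8.7 mGy/h and 0 lower, with a median log2 difference of 0.49. Of 29 snx genes, the sorting nexins, 9 were higher and 0 lower (median 0.65). Of 32 zbtb genes, which encode zinc finger factors with a BTB domain, 14 were higher and 2 lower (median 0.74). The genes of mitochondrial ribosomes differed by subunit, with 10 of 43 mrpl genes lower and 0 higher (median -0.28), and 2 of 29 mrps genes lower and 0 higher (median 0.03). Over all genes past the filter, 14.8% were higher and 12.5% lower, with a median of 0.16.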
